A study of Cricetiscus sungorus with 24 samples.

Results

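The kidney forms of the aquaporin water channels and the vasopressin V2 receptor were followed through 2 kidney sequencing experiments on the Siberian (Djungarian) hamster, *Phodopus sungorus*. The members were 9 genes chosen by name, the aquaporins *Aqp1*, *Aqp2*, *Aqp3*, *Aqp4*, *Aqp6*, *Aqp7*, *Aqp8* and *Aqp11* and the receptor gene *Avpr2*. Experiment 2 listed all 9 among 15842 genes, and experiment 1 listed 6 among 9681 genes, without *Aqp2*, *Aqp4* and *Aqp8*. Each gene was represented by the mouse RefSeq transcript with the highest total in its experiment, because the reads of several transcripts of a gene can be the same reads.

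Experiment 1 held adult males in long photoperiod (LP, 16 h of light per day, n = 4), after 12 weeks in short photoperiod (SP12wk, 8 h of light, n = 4) and after 28 weeks in short photoperiod (SP28wk, 8 h of light, n = 4). Experiment 2 held adult females kept for 8 weeks in short photoperiod (8 h of light), of which 6 received 18 µg ovine prolactin (PRL) per injection on 3 days and 6 received the vehicle of DMSO and saline (SAL). The libraries were made from bulk kidney RNA, with cDNA read whole on nanopores, and the hamster reads were named by mouse transcripts. In bulk kidney, fewer cells of a type and less RNA per cell cannot be told apart. The 2 experiments differed in sex, depth and flow cell, and these differences cannot be told apart.

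Aquaporins are membrane channels that let water cross epithelia along osmotic gradients. Along the nephron, *Aqp1* is known from the proximal tubule and the thin descending limb, where most filtered water is taken back. In the principal cells of the collecting duct, vasopressin binds the receptor encoded by *Avpr2*, cAMP rises, and vesicles carrying the *Aqp2* channel fuse with the apical membrane, while the *Aqp3* and *Aqp4* channels pass the water on through the basolateral membrane. The comparisons address whether transcripts of this system differed with photoperiod or after PRL.

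Depth differed strongly between the experiments. Libraries of experiment 1 held 15687 to 57585 counts over 1 transcript per gene, and those of experiment 2 held 174053 to 756523. Values are given in CPM, the counts of a gene scaled to a total of 1000000 of these counts per library. A gene without a count could still stand at up to 3 counts, which is 52.1 to 191 CPM in experiment 1 and 3.97 to 17.2 CPM in experiment 2. These limits cover counting error only. The tables give no transcript lengths, so that levels of different genes are not ranked here and shares are shares of reads. In LP replicates 2 and 3 the total over all listed transcripts was 3.31 and 2.90 times the total over 1 transcript per gene, against 2.15 to 2.45 in the other 10 libraries of experiment 1, and results that rest on them are given with and without them. In experiment 1 the summed CPM of the proximal tubule markers was 1514 to 2692 and that of the principal cell markers 47.0 to 388, but *Miox* had 0 reads in LP replicate 2 (16, 29 and 22 in the other LP libraries) and *Fxyd4* had 0 reads in 5 of 12 libraries, LP replicate 2 among them. In experiment 2 the summed CPM of the proximal tubule list (led by *Fbp1*, *Miox* and *Lrp2*) was 1405 to 3758, that of the principal cell list (led by *Fxyd4*, *Krt8* and *Hsd11b2*) 211 to 534 and that of the intercalated cell list (led by *Atp6v1g3*, *Rhcg* and *Atp6v1b1*) 344 to 1046.

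In experiment 1 the members gave 192 reads in 12 libraries, and 173 of them (90.1%) were reads of *Aqp1* (transcript NM_007472.2). *Aqp6* had 10 reads in 7 libraries. The other 4 listed members had 9 reads in all, 2 each for *Aqp3*, *Aqp7* and *Aqp11* and 3 for *Avpr2*. *Aqp3* was counted once in SP12wk replicate 4 and once in SP28wk replicate 3, and *Aqp7* once each in SP12wk replicates 3 and 4. *Aqp11* was counted once in LP replicate 4 and once in SP28wk replicate 4. *Avpr2* had 1 read in LP replicate 1 and 2 reads in SP28wk replicate 1, and 2 of its transcripts tied for the highest total with different counts. At this depth no difference between photoperiods was detectable for these 4 genes.

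*Aqp1* was read in all 12 libraries of experiment 1. The LP libraries stood at 706, 1458, 1665 and 155 CPM (15, 26, 30 and 4 reads). The SP12wk libraries stood at 531, 255, 753 and 367 CPM (13, 4, 15 and 13 reads). The SP28wk libraries stood at 277, 456, 229 and 469 CPM (7, 11, 8 and 27 reads). The highest values were those of LP replicates 2 and 3, the lowest was that of LP replicate 4, and LP therefore overlapped with both SP groups.

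The mean of *Aqp1* was 996 ± 696 CPM in LP (SD, n = 4), 477 ± 216 CPM in SP12wk (SD, n = 4) and 358 ± 123 CPM in SP28wk (SD, n = 4). The difference of SP12wk from LP did not pass (log2 fold change -0.75, SE 0.49, edgeR quasi-likelihood test, Benjamini-Hochberg adjusted p = 0.679; exact permutation p = 0.286). SP28wk against SP12wk did not pass either (log2 fold change -0.22, SE 0.50, edgeR adjusted p = 0.980; exact permutation p = 0.429). SP28wk was 0.96 lower than LP on the log2 scale (fitted value -0.96, SE 0.48, 95% interval -1.91 to -0.019), with an edgeR p of 0.0456 before and 0.562 after adjustment and an exact permutation p of 0.171. The smallest two-sided p that 4 libraries against 4 allow is 0.0286. Without LP replicates 2 and 3 the LP mean was 430 ± 389 CPM (SD, n = 2), and the fitted log2 fold changes were 0.19 for SP12wk and -0.078 for SP28wk against LP. Without LP replicate 4, the library with the lowest value, the difference of SP28wk from LP was -919 CPM with an exact permutation p of 0.0286. The size of the *Aqp1* difference from LP, and in SP12wk its direction, thus rested on which LP libraries were counted.

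**Figure D1:**
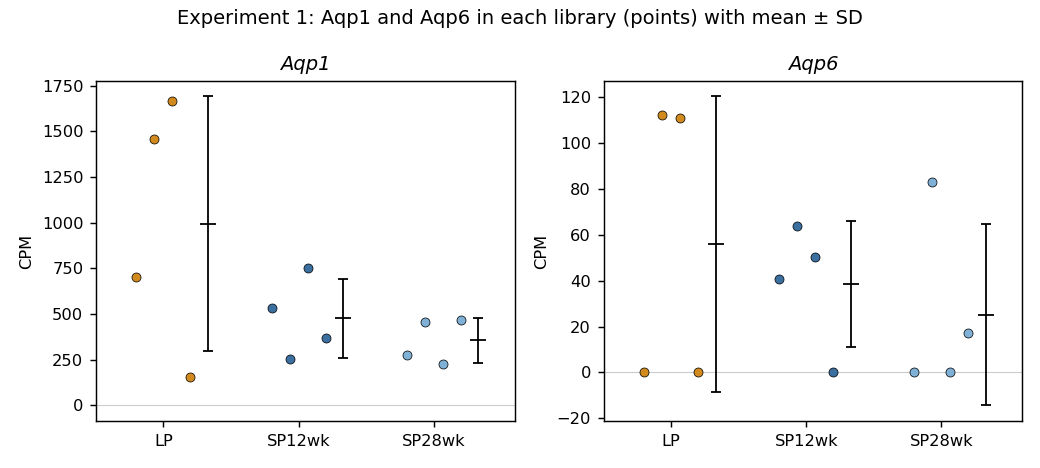
Points are the CPM of *Aqp1* (left) and *Aqp6* (right) in each library of experiment 1 for LP, SP12wk and SP28wk (n = 4 each), and bars are the mean ± SD. *Aqp1* in LP spread from 155 to 1665 CPM, around all 8 SP values, and *Aqp6* was at 0 in 5 of the 12 libraries.

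*Aqp6*, known as an intracellular channel of acid-secreting intercalated cells, had at most 2 reads in a library of experiment 1. Its LP libraries stood at 0, 112, 111 and 0 CPM, its SP12wk libraries at 40.9, 63.7, 50.2 and 0 CPM and its SP28wk libraries at 0, 83.0, 0 and 17.4 CPM. Each group held libraries with and without a read. The log2 fold changes were -0.34 (SE 1.15) for SP12wk against LP, -0.35 (SE 1.19) for SP28wk against SP12wk and -0.69 (SE 1.13) for SP28wk against LP, with edgeR adjusted p of 0.965, 0.980 and 0.915. Both LP libraries with reads were replicates 2 and 3, and without them the LP libraries were all at 0.

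Of the 6 members listed in experiment 1, 2 had the counts in at least 4 libraries that the test required. In SP12wk against LP 0 of the 2 passed an adjusted p of 0.05, where 0.0197% of the 5086 genes tested did, and 0 passed an unadjusted p of 0.05, where 7.26% of genes did. In SP28wk against SP12wk 0 passed the adjusted p (0.138% of genes) and 0 the unadjusted p (6.1% of genes). In SP28wk against LP 0 passed the adjusted p (0.216% of genes), and *Aqp1* passed the unadjusted p (8.57% of genes). DESeq2 called 0 members at the adjusted p in each of these comparisons, and *Aqp1* passed its unadjusted p in SP28wk against LP (0.0299, adjusted 0.996). The median log2 fold change of all genes in SP28wk against LP was 0.18 with TMM scaling and -0.029 with the scaling of DESeq2 in the same edgeR model, and that of *Aqp1* lies below either. The 3 comparisons share their libraries.

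In experiment 2 the members gave 2266 reads. *Aqp1* took 1199 (52.9%), *Aqp6* 453 (19.99%), *Avpr2* 161 (7.11%), *Aqp3* 144 (6.35%), *Aqp11* 112 (4.94%), *Aqp7* 79 (3.49%), *Aqp2* 63 (2.78%), *Aqp4* 42 (1.85%) and *Aqp8* 13 (0.574%). All 9 passed the filter of a count in at least 6 of 12 libraries. *Aqp4* was at 0 in 1 library and *Aqp8* in 5. None of the 9 shared the counts of its transcript with another listed gene among those with at least 20 reads, which leaves out *Aqp8*.

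*Avpr2* encodes the receptor that starts the response to vasopressin. In SAL its lowest, median and highest values were 16.9, 24.0 and 46.8 CPM, and in PRL 17.2, 45.9 and 51.4 CPM. In PRL 4 libraries (replicates 1, 2, 3 and 6) lay between 43.5 and 51.4 CPM and replicates 4 and 5 lay at 18.4 and 17.2 CPM, within the range of SAL. These replicates 4 and 5 were the shallowest libraries of experiment 2 (217483 and 174053 counts), with 4 and 3 reads of *Avpr2*. The means were 28.6 ± 13.04 CPM in SAL and 37.9 ± 15.8 CPM in PRL (SD, n = 6 each), with a log2 fold change of 0.45 (SE 0.32, edgeR adjusted p = 0.999; exact permutation p = 0.266). The counts of *Avpr2* were the same on 3 of its 5 listed transcripts, which NM_019404.2 represents.

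*Aqp2*, the channel that vasopressin sends to the apical membrane, was read in all 12 libraries, with 1 to 15 reads each. The SAL libraries stood at 10.8, 5.20, 22.8, 3.76, 3.06 and 16.0 CPM (4, 2, 5, 2, 1 and 5 reads). The PRL libraries stood at 16.7, 19.8, 23.7, 9.20, 5.75 and 28.4 CPM (10, 15, 6, 2, 1 and 10 reads). The PRL libraries included the 2 highest values, 3 of the SAL libraries lay below all of PRL, and the other libraries overlapped. The mean was 10.3 ± 7.89 CPM in SAL and 17.3 ± 8.596 CPM in PRL (SD, n = 6 each). The log2 fold change was 0.96 (SE 0.46, 95% interval 0.035 to 1.88), with an edgeR p of 0.0423 before and 0.996 after adjustment. The exact permutation p was 0.167, where 6 libraries against 6 allow 0.00216 at the smallest. Without 1 library at a time the log2 fold change was 0.74 to 1.20 and the unadjusted edgeR p 0.0188 to 0.130.

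*Aqp3* and *Aqp4* are known as the exit channels on the basolateral side of principal cells, and *Aqp3* also passes glycerol. *Aqp3* had its lowest, median and highest values at 6.40, 21.5 and 86.8 CPM in SAL and at 7.91, 24.3 and 54.2 CPM in PRL. The range of PRL lay within that of SAL. The log2 fold change was 0.064 (SE 0.40, edgeR adjusted p = 0.999), the means were 32.4 ± 30.0 and 27.4 ± 17.1 CPM (SD, n = 6 each), and the exact permutation p was 0.771. *Aqp4* had its lowest, median and highest values at 0, 6.82 and 13.5 CPM in SAL and at 4.60, 11.4 and 15.8 CPM in PRL, and the groups overlapped over most of their ranges. The means were 6.79 ± 4.86 CPM in SAL and 10.8 ± 3.90 CPM in PRL (SD, n = 6 each), and the log2 fold change was 0.50 (SE 0.50, edgeR adjusted p = 0.999; exact permutation p = 0.143). The SAL library at 0 was replicate 3, which allows up to 13.7 CPM.

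*Aqp6* stood at 39.8, 88.9 and 107 CPM in SAL (lowest, median and highest) and at 68.9, 97.6 and 190 CPM in PRL. The groups overlapped, and the value of 190 CPM in PRL replicate 2 (144 reads) was far above the next, 111 CPM. The means were 80.0 ± 26.2 and 107 ± 44.3 CPM (SD, n = 6 each), with a log2 fold change of 0.43 (SE 0.27, edgeR adjusted p = 0.999; exact permutation p = 0.242). Without PRL replicate 2 the log2 fold change was 0.11. A transcript predicted for mouse *Aqp6* (XM_006520350.5) was listed beside the curated NM_175087.5. It had 57.3 ± 19.8% of the counts of the curated transcript in SAL and 58.0 ± 12.0% in PRL (SD, n = 6 each).

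Of the members known from the proximal tubule, *Aqp1* was the steadiest among all 8 members read in at least 10 libraries, with 1.89-fold between its lowest and highest library. It also had the most reads, 46 to 204 in a library, and counting error widens the ranges of members with fewer reads. In SAL *Aqp1* stood at 181, 258 and 333 CPM (lowest, median and highest) and in PRL at 212, 274 and 342 CPM. The groups overlapped almost entirely. The means were 254 ± 53.7 and 276 ± 42.0 CPM (SD, n = 6 each), with a log2 fold change of 0.067 (SE 0.20, 95% interval -0.34 to 0.48, edgeR adjusted p = 0.999; exact permutation p = 0.448).

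*Aqp7*, an aquaglyceroporin of the straight proximal tubule, stood at 6.12, 14.5 and 24.5 CPM in SAL and at 2.84, 18.3 and 27.6 CPM in PRL (lowest, median and highest). In PRL 3 libraries lay between 25.1 and 27.6 CPM, above all of SAL, and the other 3 between 2.84 and 11.5 CPM, within or below SAL. The log2 fold change was 0.16 (SE 0.43, edgeR adjusted p = 0.999; exact permutation p = 0.810). *Aqp11*, known from the endoplasmic reticulum of proximal tubule cells, stood at 9.60, 22.0 and 59.4 CPM in SAL and at 3.95, 28.2 and 33.0 CPM in PRL. Its highest value was SAL replicate 3 and its lowest PRL replicate 3. The log2 fold change was -0.071 (SE 0.38, edgeR adjusted p = 0.999; exact permutation p = 0.721). *Aqp8* had 0 to 4 reads in a library, 6 reads in SAL and 7 in PRL, and a 95% interval of its log2 fold change from -1.62 to 1.71.

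**Figure D2:**
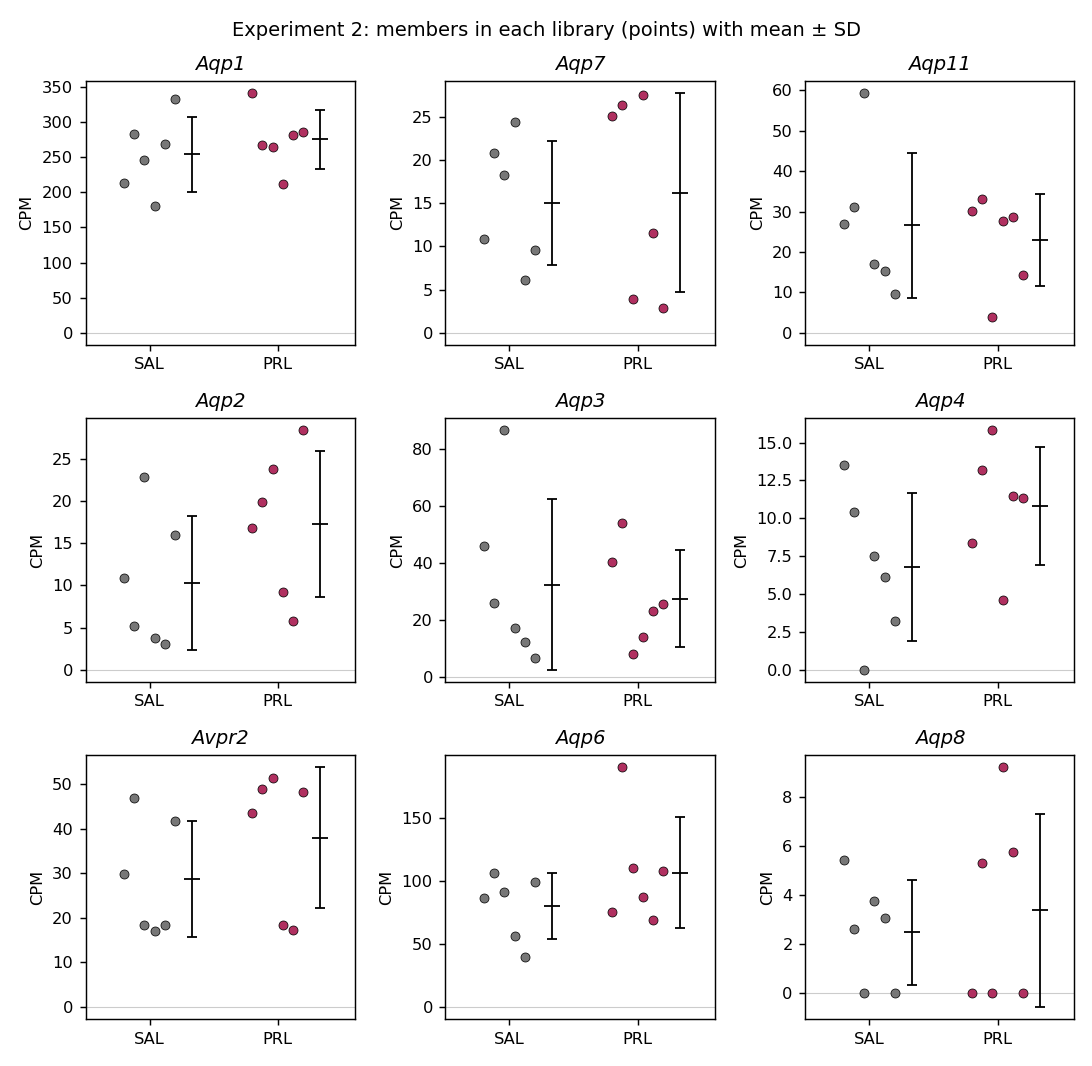
Each panel shows the CPM of 1 member in the SAL and PRL libraries of experiment 2 (points, n = 6 each) with the mean ± SD (bars), and the vertical scales differ between panels. The groups overlap in every panel, and the value of *Aqp6* in PRL replicate 2 (190 CPM) stands above the rest.

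In PRL against SAL 0 of 9 members passed an edgeR adjusted p of 0.05, as did 0.0% of the 10696 genes tested. At an unadjusted p of 0.05 *Aqp2* passed, 1 of 9, where 4.88% of all genes did. In DESeq2 0 members had an unadjusted p under 0.05 (*Aqp2*, 0.0880), and *Aqp1* alone of the 9 received an adjusted p (0.996), since DESeq2 gave none for 9953 of the 10696 genes. The median log2 fold change of the 9 members was 0.16, beside 0.027 over all genes tested, and the mean CPM was higher in PRL for 7 members and lower for *Aqp3* and *Aqp11*. The 95% intervals were widest for *Aqp8* and narrowest for *Aqp1*, so that a doubling was outside the interval for *Aqp1*, *Aqp3*, *Aqp6* and *Aqp11* and inside it for the other 5.

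**Figure D3:**
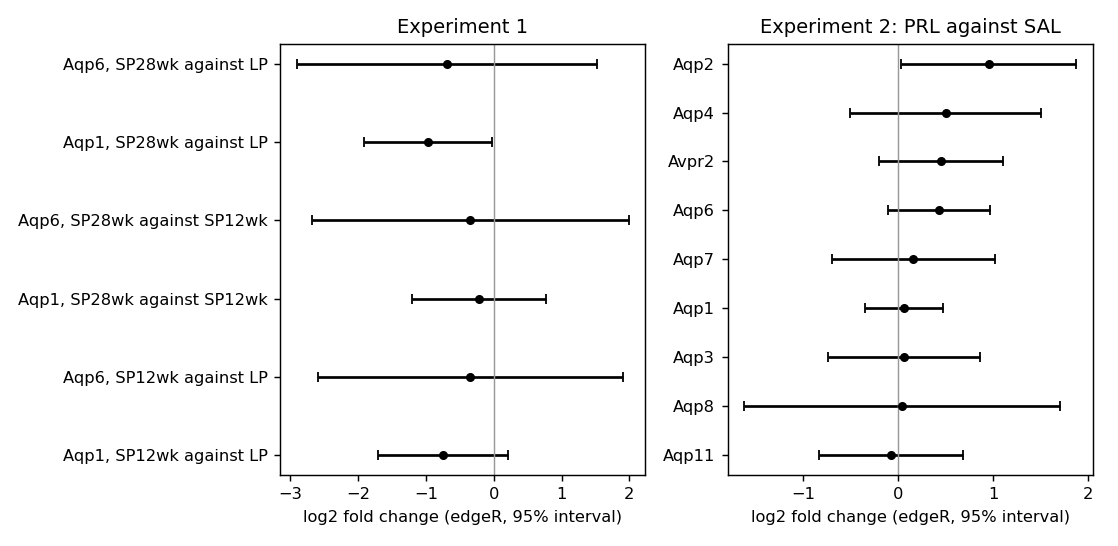
Points are edgeR log2 fold changes of the members tested, with bars for the 95% interval, in the 3 comparisons of experiment 1 (left) and in PRL against SAL (right). The intervals of *Aqp1* in SP28wk against LP (-1.91 to -0.019) and of *Aqp2* in PRL against SAL (0.035 to 1.88) do not cross 0, and neither gene passed the adjusted test.

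Other genes of the system were counted from lists chosen by name. Of 5 other aquaporins (*Mip*, *Aqp5*, *Aqp9*, *Aqp10* and *Aqp12*), *Aqp5* alone was listed, with 1 read in PRL, and of *Avp*, *Avpr1a*, *Avpr1b* and *Oxtr*, *Avpr1a* alone was listed, with 3 reads in PRL, both in experiment 2. The 40 genes that carry the vasopressin signal and move the *Aqp2* vesicles (adenylyl cyclases, protein kinase A, CREB factors, Rab, SNARE, dynein and dynactin genes) were all listed in experiment 2, and 36 were tested. In PRL against SAL 0 passed the adjusted p, and 2 of the 36 had an unadjusted edgeR p under 0.05, *Adcy9* at a log2 fold change of 1.30 and *Arhgdib* at 0.80, a share near the 4.88% of all genes. The median of the 36 was 0.041, beside 0.027 over all genes. The 3 with most reads were *Gnas*, the G protein subunit that activates adenylyl cyclase (215 ± 48.1 CPM in SAL and 256.5 ± 45.4 CPM in PRL, SD, n = 6 each), *Rab11a* of recycling vesicles (195 ± 24.4 and 221 ± 18.9 CPM) and the dynein light chain *Dynll1* (162 ± 28.7 and 167 ± 35.5 CPM). Their log2 fold changes were 0.20, 0.12 and 0.023. In experiment 1, 26 of the 40 were tested and 0 passed the adjusted p in any comparison. At an unadjusted edgeR p of 0.05, 0 passed in SP12wk against LP, where 7.26% of all genes did. In SP28wk against SP12wk *Adcy9* passed (log2 fold change 3.22), where 6.1% of genes did. In SP28wk against LP *Nsf* (-2.41), *Prkar1a* (-1.09) and *Vamp2* (-3.30) passed, 3 of the 26, where 8.57% of genes did. The medians were -0.072, 0.13 and 0.16 in SP12wk against LP, SP28wk against SP12wk and SP28wk against LP, beside -0.0013, 0.16 and 0.18 over all genes.

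Of 10 genes of the response to tonicity and of urea transport, 6 were listed and 4 tested in experiment 1, where *Akr1b3* alone passed. It encodes aldose reductase, which makes the osmolyte sorbitol. It had 0 reads in the 4 SP12wk libraries, 1 read in LP and 0, 7, 15 and 7 reads in SP28wk, and it was higher in SP28wk than in SP12wk (edgeR adjusted p = 0.00388) and than in LP (edgeR adjusted p = 0.0219). SP28wk replicate 1 had no read, and the exact permutation p was 0.143 against SP12wk and 0.143 against LP. DESeq2 called neither difference (adjusted p = 1.000 and 0.996). The edgeR call against LP was lost without LP replicate 1, 2 or 3 (adjusted p = 0.117, 0.139 and 0.210) and with the scaling of DESeq2 in edgeR (0.0537), and that against SP12wk without SP12wk replicate 4 (0.0572). With the transcripts of a gene added, both calls were lost (edgeR adjusted p = 0.654 against LP and 0.673 against SP12wk). In experiment 2 its lowest, median and highest values were 65.0, 190 and 589 CPM in SAL and 239, 620 and 2234 CPM in PRL, with a log2 fold change of 1.69 (SE 0.39) that did not pass adjustment. The adjusted p of edgeR was 0.165 (9.92e-05 before), and the unadjusted exact permutation p was 0.0216. The transport genes *Slc6a6* (taurine) and *Nfat5*, the factor that turns on tonicity genes, had log2 fold changes of -0.23 and 0.12 in PRL against SAL, both with an edgeR adjusted p of 0.999. The list's median there was 0.084 over 8 genes tested.

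Of 12 markers of the principal cell 10 were tested, 8 had a log2 fold change above 0 in PRL against SAL, and the median was 0.46, beside 0.027 over all genes. None passed the adjusted p. At an unadjusted edgeR p of 0.05, 3 of the 10 passed, where 4.88% of all genes did. They were *Krt8* (log2 fold change 0.66), *Krt18* (1.08) and the sodium channel subunit *Scnn1a* (1.66). The summed CPM of the list was 211 to 341 in SAL and 294 to 534 in PRL. The means of this sum were 286 ± 45.8 and 408 ± 80.0 CPM (SD, n = 6 each), with an unadjusted exact permutation p of 0.0108. *Aqp2* as a percent of that sum was 3.42 ± 2.42% in SAL and 4.09 ± 1.66% in PRL (SD, n = 6 each; exact permutation p = 0.580), and *Avpr2* was 10.02 ± 4.51% and 9.02 ± 2.83% (exact permutation p = 0.667). *Aqp4* was 2.44 ± 1.67% and 2.58 ± 0.635% (exact permutation p = 0.846), and *Aqp3* was 11.02 ± 9.40% and 6.86 ± 3.96% (exact permutation p = 0.398). For each of the 4 genes the means differed by less than the SD in SAL, which is a description and no test. *Aqp2* had 19 reads in SAL and 44 in PRL, so that its share carries a wide counting error. The part of principal cell content in the *Aqp2* values was not tested. The medians of the intercalated, proximal tubule and thick limb lists were 0.28, 0.12 and 0.19. Those of the endothelial, red blood cell, adipose and adrenal lists were -0.20, -0.13, 0.60 and 0.17. Values above 0 were seen in 7 of 10 intercalated, 7 of 10 proximal tubule and 7 of 9 thick limb genes tested. The endothelial, red blood cell, adipose and adrenal counts were 3 of 8, 2 of 5, 5 of 6 and 1 of 2. At the same unadjusted threshold, *Sptssb* of the thick limb list (log2 fold change 1.09) and *Cfd* of the adipose list (2.13) also passed. Neither passed the adjusted p, and whether the lists differed from one another was not tested. The sums of the intercalated and proximal tubule lists had an exact permutation p of 0.799 and 0.565 in PRL against SAL. That of the tonicity list, of which *Akr1b3* made up 79.7%, was 387 ± 202 CPM in SAL and 974 ± 729 CPM in PRL (SD, n = 6 each, unadjusted exact permutation p = 0.0195).

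The members were set against marker lists across the 12 libraries of experiment 2. Correlations were computed on log2(CPM + 1) of the 8 members read in at least 10 libraries with the log2 summed CPM of 4 lists, 32 relations in all. The 4 were the proximal tubule, principal cell, intercalated cell and tonicity lists. The thick limb list was not among them, so that relations to that segment were not tested. All p-values come from permutation tests with 100000 resamples adjusted over the 32. The lists hold no member. All values share the library totals, and these relations were chosen after the data were seen.

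*Aqp2* followed the principal cell list (Pearson r = 0.75, permutation p = 0.00486, adjusted 0.0311; Spearman rho = 0.81, p = 0.00254, adjusted 0.0271). With the 2 libraries left out whose list sums lay farthest from the median, r was 0.66, and within SAL and PRL it was 0.69 and 0.74. *Aqp2* had only 2, 2 and 1 reads in SAL replicates 2, 4 and 5, and 2 and 1 in PRL replicates 4 and 5. Such counts do not exceed the 3 at which a gene without a count could still stand. *Avpr2* had an r of 0.64 (permutation p = 0.0261, adjusted 0.121) and a rho of 0.66 (p = 0.0212, adjusted 0.0970) with the same list, which did not pass.

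*Aqp3* followed the proximal tubule list. Its r with that list was 0.89 (permutation p = 0.000150, adjusted 0.00480) and its rho 0.88 (p = 0.000400, adjusted 0.0128), and r was 0.85 without the 2 farthest libraries, 0.97 within SAL and 0.87 within PRL. With the principal cell list, the cells where its protein is best known, r was 0.049 and rho 0.10 (permutation p = 0.879 and 0.747). Without the 2 libraries farthest in the principal cell sum this r was 0.36, and within SAL and PRL it was 0.24 and -0.11. The difference between the correlations with the proximal tubule and principal cell lists was not tested. *Aqp11* also followed the proximal tubule list (r = 0.81, permutation p = 0.000600, adjusted 0.00640; rho = 0.81, p = 0.00223, adjusted 0.0271), with an r of 0.80 without the 2 farthest libraries, 0.91 within SAL and 0.81 within PRL. Both genes were lowest where proximal tubule markers were lowest, in SAL replicate 6 and PRL replicate 3, whose list sums were 1405 and 1475 CPM. These lowest values rest on 2 and 2 reads of *Aqp3* and on 3 and 1 reads of *Aqp11*. Such counts do not exceed the 3 at which a gene without a count could still stand. The highest counts were 41 for *Aqp3* and 25 for *Aqp11*, both in PRL replicate 2. With the intercalated list, r was 0.77 for *Aqp3* and 0.86 for *Aqp11* (adjusted permutation p = 0.0311 and 0.00544), while the adjusted p of rho was 0.0637 for both. Without the 2 libraries farthest in the intercalated sum, r was 0.87 for *Aqp3* and 0.84 for *Aqp11*. It was 0.97 and 0.87 within SAL, and 0.60 and 0.88 within PRL. Whether *Aqp3* and *Aqp11* followed the proximal tubule list more than the intercalated list was not tested.

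*Aqp1* did not follow the proximal tubule list (r = -0.027 and rho = -0.042, permutation p = 0.935 and 0.904), and *Aqp7* had an r of 0.52 (permutation p = 0.0871, adjusted 0.253) and a rho of 0.41 (p = 0.192, adjusted 0.441). *Aqp6* had an r of -0.014 and a rho of -0.12 with the intercalated list (permutation p = 0.966 and 0.718). Of the 32 relations, 3 passed the adjusted p by both measures, those of *Aqp2* with the principal list and of *Aqp3* and *Aqp11* with the proximal tubule list.

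**Figure D4:**
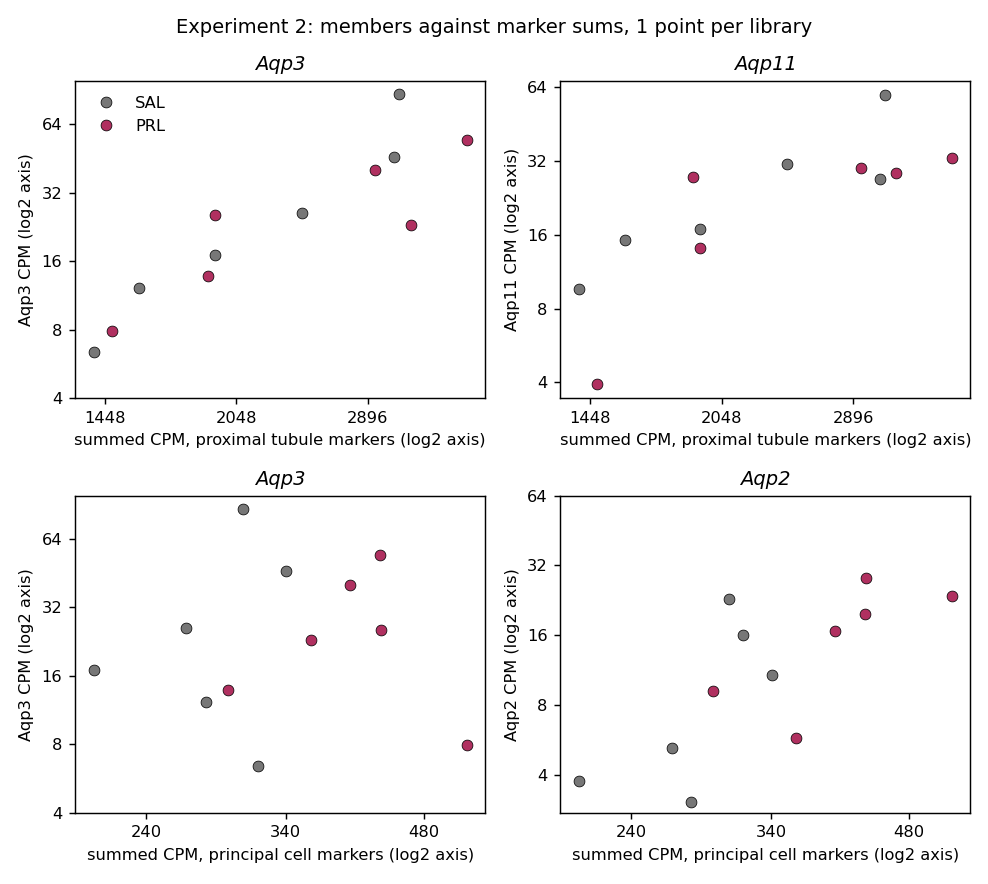
Each point is 1 library of experiment 2 (SAL or PRL), with the summed CPM of a marker list on the horizontal axis and the CPM of a member on the vertical axis, both on log2 axes. *Aqp3* and *Aqp11* rise with the proximal tubule sum (r = 0.89 and 0.81), and *Aqp2* rises with the principal cell sum (r = 0.75). The r of *Aqp3* with the principal cell sum was 0.049, and 0.36 without the 2 libraries farthest in that sum.

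Among the 4 genes of the principal cell pathway, *Aqp2* was set against the other three. With *Avpr2* r was 0.59 (permutation p = 0.0446, adjusted over 3 pairs 0.134) and rho 0.62 (p = 0.0341, adjusted 0.102). The r was 0.39 when the 2 libraries with the most extreme *Aqp2* were left out, 0.20 within SAL and 0.95 within PRL, and the difference between the groups was not tested. In PRL the lowest values of both genes were those of replicates 4 and 5, the shallowest libraries of experiment 2. *Avpr2* had 4 and 3 reads there, and *Aqp2* had 2 and 1. With *Aqp3* r was 0.25 and rho 0.27 (permutation p = 0.423 and 0.404, adjusted 0.635 and 0.441), r without the 2 farthest libraries was 0.081, and within SAL and PRL it was 0.41 and 0.066. With *Aqp4* r was -0.12 and rho 0.24 (permutation p = 0.741 and 0.441, adjusted 0.741 and 0.441), r without the 2 farthest was -0.20, and within SAL and PRL it was -0.67 and 0.46. Without SAL replicate 3, where *Aqp4* had no read, the r with *Aqp4* was 0.27.

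The genes most like *Aqp1*, *Aqp2* and *Aqp3* over the 12 libraries were sought among 3196 genes with a count in every library and a mean of at least 10 counts. For *Aqp1* they were *Cct3*, *Ppm1g* and *Cct4* (Pearson r = 0.87, 0.82 and 0.81 of log2(CPM + 1)). For *Aqp2* they included *Manbal* and *Arf5* (r = 0.85 and 0.83). For *Aqp3* they were *Prdx6*, *Grina* and *Acy3* (r = 0.99, 0.96 and 0.95), and the order of the 12 libraries was the same for *Prdx6* and *Aqp3* (Spearman rho = 1). These are the highest values of a search over all 3196 genes and are given as a description.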

How the data were processed

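Kidney RNA of 24 hamsters was sequenced as cDNA on nanopores. The sources name both a direct cDNA and a PCR-cDNA kit with the same catalogue numbers. The authors used Guppy for basecalls, Porechop and Filtlong to clean reads, and Minimap2 to align them to mouse sequence. The values they deposited are estimated counts of mouse RefSeq transcripts and are not normalized. The submitters' processing notes also name Salmon, with no role. Of 859080 values in experiment 2, 3447 were not whole, and of 439944 in experiment 1, 2868 were not.

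For each gene the transcript with the highest total was taken and rounded. Genes with a count in at least 4 (experiment 1) or 6 (experiment 2) of 12 libraries entered the quasi-likelihood fit (edgeR 4.0.16 in R 4.3.3, TMM, Benjamini-Hochberg over all genes). Mean CPM was compared with two-sided exact permutation tests, unadjusted, on 2 members in experiment 1 and 9 in experiment 2. List sums in experiment 2, and *Akr1b3* in both experiments, were compared in the same way. Each library was taken as 1 animal. In simulated data for PRL against SAL with 10282 genes, 61.2% of 67 genes changed 4-fold and 28.4% of 67 genes changed 2-fold were called. For SP12wk against LP with 4582 genes the shares were 13.4% and 0.0%. The changed genes were drawn from all genes and not at the read numbers of the members, so that these shares are no detection rates for the members. Depth per library is given in the text. Alternatives were RLE scaling, DESeq2 1.42.0, other filters, added transcripts, a replicate block and each library left out. Named genes were all members, list genes past the adjusted p, the 3 of a list with the highest mean CPM in experiment 2, and the 3 genes most like *Aqp1*, *Aqp2* and *Aqp3*, of which 1 is not reported here. Some of the list genes with an unadjusted p under 0.05 were named as well, after their values were seen. The members and lists were chosen with earlier results of these data known. Genome coordinates, transcript lengths and sequences were not used here.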

Additional observations from a re-analysis of the deposited data

Results flagged for a closer look

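In PRL replicate 2 *Aqp6* stood at 190 CPM, and the next value of the group was 111 CPM. The gap was 0.656 of the range of the 6 PRL libraries, which is past the 95% limit of Dixon's test. PRL replicate 2 was also the deepest library, with 756523 counts. Dixon's test was made on 24 groups of member values, of which 1 passed, and chance gives about 1 in 20. Without this library the difference of PRL from SAL in *Aqp6* was 10.04 CPM in place of 26.8 CPM.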

How the results depend on the processing

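Every edgeR alternative called 0 members in each comparison, including the replicate block (0 members in each) and the removal of LP replicates 2 and 3. DESeq2 called 0 members in experiment 1, and in experiment 2 it gave no adjusted p for 8 of the 9 members, so that its count of 0 there bears on *Aqp1* alone. The exact test gave 0 members under each other scaling, and 0 to 1 in SP28wk against LP with 1 library left out (1 without LP replicate 4). The relations of *Aqp2* gave 0 pairs, and 0 to 1 with 1 library left out (*Aqp2* with *Avpr2* without SAL replicates 2 or 3, r = 0.75 and 0.77).

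No member and no *Aqp2* pair had passed in the main setting, so that every sign that turned belonged to a value that did not pass. The 3 relations to marker lists that passed were not put through these alternatives. Without LP replicates 2 and 3 the log2 fold change was 0.19 for *Aqp1* in SP12wk against LP, and 2.98 and 2.59 for *Aqp6* in SP12wk and SP28wk against LP, where LP was at 0, so that these fitted values rest on the prior count and are no folds. With transcripts added, *Aqp6* in SP28wk against SP12wk was 0.48 (log2) and 5.83 CPM, and *Aqp3* and *Aqp4* in PRL against SAL were -0.18 and -0.045. *Aqp3* was -0.13 with DESeq2 and -0.039 with the block. With 1 library left out, log2 fold changes spanned -0.74 to 0.17 (*Aqp6*, SP12wk against LP) and, in PRL against SAL, -0.036 to 0.17 (*Aqp1*), -0.33 to 0.45 (*Aqp3*), -0.13 to 0.42 (*Aqp7*), -0.54 to 0.39 (*Aqp8*) and -0.29 to 0.17 (*Aqp11*). CPM differences spanned -35.7 to 1.71 (*Aqp6*, SP12wk against LP), -10.3 to 5.93 (*Aqp3*), -1.04 to 3.91 (*Aqp7*), -0.265 to 1.57 (*Aqp8*) and -7.03 to 2.93 (*Aqp11*), and r of *Aqp2* with *Aqp4* spanned -0.24 to 0.27. The cause was not tested.

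Replicate numbers showed no clear pairing of the animals. In experiment 1 same-number r was -0.0953 to 0.206 (median 0.021), beside -0.213 to 0.211 (median -0.017) for different numbers. In experiment 2 same-number r was -0.181 to 0.237 (median 0.064), beside -0.237 to 0.214 (median 0.0070). In experiments 1 and 2, 4 and 3 of 12 libraries were closest to their own number. Over all genes, PRL against SAL gave 0 calls, 92 with no filter, 52 with the block, 1 with transcripts added and 0 to 44 with 1 library left out. In experiment 1 the 1, 7 and 11 calls became 0, 0 and 0 with transcripts added and 0, 2 and 2 with DESeq2. In experiment 1 the read numbers of the members, 192 in all, limit what could be detected.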
